A study of Mus musculus with 10 samples.

Results

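Nonsense-mediated decay (NMD) is the surveillance pathway that degrades mRNAs whose translation ends too early, and it also sets the level of many normal transcripts. The helicase UPF1 is loaded where a ribosome terminates, UPF2 and UPF3 proteins link it to the exon junction complex left by splicing, and the kinase SMG1, held in check by SMG8 and SMG9, phosphorylates it. Phosphorylated UPF1 then recruits SMG6, an endonuclease that cuts the mRNA, or SMG5, an adaptor for deadenylation and decapping. Several UPF and SMG mRNAs are themselves known substrates of the pathway, and many transcripts of the stress response are too.

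The 9 UPF and SMG factors described here, Upf1, Upf2, Upf3a, Upf3b, Smg1, Smg5, Smg6, Smg8 and Smg9, were chosen by name. All 9 were found among the 48709 Ensembl identifiers of the deposited count tables, and all 9 were among the 15660 genes that passed the filter on low counts. Polyadenylated RNA was sequenced from primary mouse hippocampal neurons, cells of the hippocampus grown in culture, at 10 days in vitro. Cultures were kept for 6 h with tunicamycin at 2 ug/mL, an inhibitor of N-linked glycosylation that causes endoplasmic reticulum (ER) stress (6 libraries), or with its solvent DMSO (4 libraries). The labels name no strain, no age of the donor animals and no number of cultures or animals behind the libraries. Each p-value therefore rests on the spread among libraries of a group, and that spread may be technical.

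Library depth was 2.11e+07 to 2.92e+07 counts. The libraries came from 3 sequencing lanes, as named in the deposited files, and each lane held both groups. The ER chaperone Hspa5 rose from 613 to 3211 CPM (counts scaled to a library total of 1e+06) and the stress factor Ddit3 from 34.3 to 264 CPM. Neuron markers were abundant under DMSO, with Map2 at 2355 CPM and Snap25 at 739 CPM, but the cultures also held astrocyte transcripts such as Slc1a2 at 1244 CPM. All 6 astrocyte markers were lower with tunicamycin (summed level 2711 to 3054 CPM with DMSO and 1918 to 2139 CPM with tunicamycin), as were 7 of 9 neuron markers (5438 to 5956 against 4698 to 4941 CPM) and all 5 proliferation markers (77.4 to 99.1 against 44.7 to 55.6 CPM). Among 4 interneuron markers 3 were lower. Microglia markers summed to 13.6 to 16.8 CPM with DMSO and 10.8 to 12.9 CPM with tunicamycin (3 of 5 tested lower), oligodendrocyte lineage markers to 24.97 to 41.2 and 27.2 to 30.2 CPM (1 higher and 2 lower of 5 tested), and endothelial markers to 1.15 to 1.74 and 2.15 to 3.17 CPM (1 of 3 tested higher), with Cldn5 and Mag close to 0. Lower and higher mean called by the test defined below, which called 32.5% of all genes tested lower and 31.8% higher. Counts from the short lists of interneuron, microglia, oligodendrocyte lineage and endothelial markers are not results about these cells. Counts are of whole cultures, in which fewer cells of a type and less RNA per cell cannot be told apart. The part of these marker shifts in the results below was not tested.

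Tunicamycin raised 8 of the 9 factors by 1.13-fold to 1.42-fold, and Upf3b alone did not pass the test. A gene was called when edgeR's quasi-likelihood test gave a Benjamini-Hochberg adjusted p under 0.05 over all genes tested. The background was wide, since 64.3% of all genes were called, 31.8% higher and 32.5% lower. With TMM scaling and all 10 libraries, edgeR called none of the 9 factors lower, also at an unadjusted p under 0.05, and DESeq2 called none lower. Upf3b was called lower by edgeR under upper-quartile scaling. The median log2 fold change of the 9 factors was 0.43, against -0.02 over all genes tested. For the same 8 genes every tunicamycin library lay above every DMSO library, a separation in this direction found for 27.0% of all genes. In the authors' deposited table of upregulated genes the same 8 factors appear (that table holds 29.7% of the genes tested here, and the table of downregulated genes, which lists none of the 9, holds 30.4%), with log2 fold changes of 0.17 for Upf1 to 0.50 for Smg1. The 4 DMSO libraries and the 6 tunicamycin libraries of each factor are shown in the plot of levels relative to the DMSO mean.

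**Figure D1:**
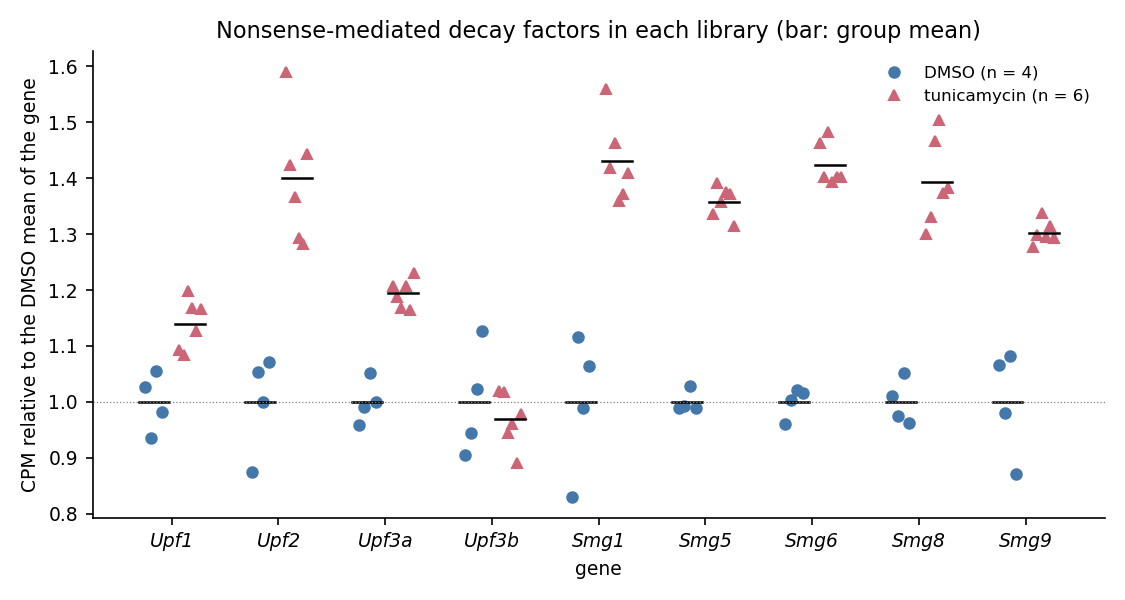
Level of each of the 9 nonsense-mediated decay factors in every library, as CPM divided by the DMSO mean of that gene (vertical axis, no unit). Circles are DMSO libraries (n = 4), triangles are tunicamycin libraries (n = 6) and bars are group means. The triangles lie above all circles for every gene except Upf3b.

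The UPF proteins form the core that reads a termination event. Upf1, the ATP-dependent RNA helicase on which the pathway depends (ENSMUSG00000058301, chromosome 8, 70331525 to 70353278, minus strand, GRCm38), stood at 76.7, 69.9, 78.9 and 73.3 CPM in DMSO replicates 1 to 4. In tunicamycin replicates 1 to 6 it stood at 81.6, 81.0, 89.5, 87.2, 84.1 and 87.1 CPM. The groups did not overlap, but the highest DMSO library and the lowest tunicamycin library were close. Upf1 rose 1.13-fold, a log2 fold change of 0.18 ± 0.04 (SE; edgeR adjusted p = 0.000371), the smallest of the 8 rises. Upper-quartile scaling lowered the centre of all tested genes from -0.02 to -0.13 on the log2 scale, and with it Upf1 was no longer called (log2 0.07, edgeR adjusted p = 0.144).

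Upf2, the adaptor between UPF1 and the UPF3 proteins (ENSMUSG00000043241, chromosome 2, 5951469 to 6056703, plus strand), had 25.8, 31.1, 29.5 and 31.6 CPM with DMSO. With tunicamycin it had 47.0, 42.1, 40.4, 38.2, 37.9 and 42.7 CPM. DMSO replicate 1 was the lowest library of the gene and tunicamycin replicate 1 the highest. Upf2 rose 1.39-fold (log2 0.48 ± 0.07, SE; edgeR adjusted p = 7.17e-06).

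The paralogs Upf3a and Upf3b both carry UPF2 to the exon junction complex, UPF3B being the stronger activator of decay. Upf3a (ENSMUSG00000038398, chromosome 8, 13785615 to 13799193, plus strand) had 35.9, 37.0, 39.3 and 37.4 CPM with DMSO and 45.1, 44.4, 43.7, 45.1, 43.5 and 46.0 CPM with tunicamycin. Its groups did not overlap, and it rose 1.19-fold (log2 0.25 ± 0.04, SE; edgeR adjusted p = 1.07e-05). Upf3b (ENSMUSG00000036572, chromosome X, 37091678 to 37110322, minus strand) had 22.2, 23.2, 25.1 and 27.7 CPM with DMSO and 24.99, 24.98, 23.2, 23.6, 21.9 and 24.0 CPM with tunicamycin. Its groups overlapped, and its means of 24.5 ± 2.41 CPM (SD, n = 4) and 23.8 ± 1.19 CPM (SD, n = 6) differed by less than the spread between DMSO libraries.

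Upf3b thus had a fitted log2 value of -0.05 ± 0.06 (SE; edgeR adjusted p = 0.465). Its sign was not stable. Without DMSO replicate 4, the highest DMSO library, the value was 0.02, and within lanes 1, 2 and 3 it was 0.14, -0.13 and -0.29. Within lanes 2 and 3 the lone DMSO library is assumed to vary like the other libraries, so those values give size and direction only. Upf3b was called lower under upper-quartile scaling, which gave -0.17 (edgeR adjusted p = 0.0161).

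Because each library measures both paralogs, their ratio does not depend on library depth. It was not corrected for GC content or length, in which the genes differ. The longest transcript of Upf3b holds 42.7% G and C and that of Upf3a 48.1%. Their exonic sequences have 3999 and 5865 bases. Upf3b counts were 0.619, 0.625, 0.638 and 0.740 of Upf3a counts in the DMSO libraries. The same ratio was 0.554, 0.563, 0.530, 0.522, 0.502 and 0.522 in the tunicamycin libraries. All 6 tunicamycin ratios were below all 4 DMSO ratios, so the balance of the paralogs moved toward Upf3a. The difference was -0.30 ± 0.07 on the log2 scale (SE), with a an exact permutation p of 0.00476 (two-sided), which no arrangement among the 210 splits can go below, and 0.0143 adjusted over the 3 ratios tested. Within lanes 1, 2 and 3 it was -0.16, -0.28 and -0.53, and without DMSO replicate 4 it was -0.24.

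The bases before the transcript start of these paralogs are printed here because, of the 3 count ratios tested, only theirs passed the test. A link between these bases and the change was not tested. Both lines give the last 120 bases upstream of the RefSeq start (GRCm38.p6, 5′ to 3′ on the strand of the gene), with CG dinucleotides in capitals. Upf3a holds 9 of them (chr8:13785495-13785614, plus strand, 63.3% G or C) and Upf3b holds 6 (chrX:37110323-37110442, minus strand, 53.3% G or C).
Upf3a: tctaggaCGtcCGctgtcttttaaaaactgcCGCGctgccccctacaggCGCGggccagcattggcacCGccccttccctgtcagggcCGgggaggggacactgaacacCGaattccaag
Upf3b: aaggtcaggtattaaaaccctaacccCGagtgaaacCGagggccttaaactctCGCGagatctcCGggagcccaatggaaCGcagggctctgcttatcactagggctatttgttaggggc

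Promoters of all 9 factors matched the RefSeq table, with 250 bases before and 50 after each start. They were rich in G and C (53.3% to 72.3%, median 66%, against a median of 52.7% over 32851 promoters). They held 18 to 47 CG dinucleotides each, against a median of 7 over all promoters. Those medians are not limited to genes past the filter on low counts, and no comparison with the tested genes was made. Exact matches on both strands were sought for 5 elements of the stress response. These were the cAMP response element TGACGTCA, the unfolded protein response element TGACGTGG and the composite site of ATF4 and C/EBP factors TGATGNAA. The others were the ER stress element, CCAAT followed after 9 bases by CCACG, and its second form, ATTGG followed after 1 base by CCACG. None of the 9 windows held any of these letters, which in the order given occur in 1.79%, 0.676%, 3.97%, 0.119% and 0.0365% of all promoter windows. No match says only that these letters are not in these windows.

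Transcripts of all 3 subunits of the kinase complex that phosphorylates UPF1 rose. Protein was not measured. Smg1, the kinase (ENSMUSG00000030655, chromosome 7, 118131308 to 118243670, minus strand), had 196, 263, 233 and 251 CPM with DMSO. With tunicamycin it had 367, 334, 345, 320, 323 and 332 CPM. The groups did not overlap, although the DMSO libraries spread by 12.5% of their mean, the widest of the 9 factors. The mean was 235 ± 29.3 CPM with DMSO (SD, n = 4) and 337 ± 17.3 CPM with tunicamycin (SD, n = 6), which gave a log2 fold change of 0.51 ± 0.08 (SE; edgeR adjusted p = 0.000198).

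Smg1 and Upf2 shared their extreme libraries, DMSO replicate 1 at the bottom and tunicamycin replicate 1 at the top. The same libraries were the extremes of a measure over all genes, the median log2 deviation in the top decile of exonic length minus that in the bottom decile. It was -0.24 in DMSO replicate 1 and 0.21 in tunicamycin replicate 1, and -0.18 to 0.08 in the others. It was below 0 in all 4 DMSO libraries and above 0 in all 6 tunicamycin libraries. A like measure on GC content, the lowest decile minus the highest, had the same extremes, -0.22 and 0.28. In the others it was -0.16 to 0.12, and it did not separate the groups. The longest transcripts of Smg1 and Upf2 hold 44.9% and 43.5% G and C, and those of the 9 factors 42.7% to 60.3%. Smg1 has the longest exonic sequence of the 9 factors, 23984 bases, against 3218 to 8453 for the others. Once a trend on GC content and length over all genes was taken out, the log2 fold change was 0.44 for Smg1 and 0.41 for Upf2, and both were still called. Without DMSO replicate 1 it was 0.42 for Smg1 and 0.41 for Upf2. For the other factors, the log2 fold change with the trend taken out was 0.27 for Upf1, 0.23 for Upf3a and -0.13 for Upf3b. It was 0.49 for Smg5, 0.49 for Smg6, 0.47 for Smg8 and 0.47 for Smg9. Of these, only Upf3b was not called.

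Smg8, which with SMG9 restrains kinase activity (ENSMUSG00000020495, chromosome 11, 87077732 to 87086774, minus strand), had 27.5, 26.6, 28.7 and 26.2 CPM with DMSO and 35.4, 36.3, 40.0, 41.0, 37.4 and 37.7 CPM with tunicamycin. It rose 1.38-fold (log2 0.47 ± 0.05, SE; edgeR adjusted p = 1.44e-08). Smg9, its GTPase-like partner (ENSMUSG00000002210, chromosome 7, 24399619 to 24422778, plus strand), had 31.1, 28.6, 31.6 and 25.4 CPM with DMSO and 37.2, 37.9, 39.0, 37.8, 38.3 and 37.7 CPM with tunicamycin. The groups of both genes stood apart, and DMSO replicate 4 was the lowest library of both. Smg9 rose 1.30-fold (log2 0.37 ± 0.05, SE; edgeR adjusted p = 8.58e-07). The count ratio of Smg9 to Smg8 had a median of 1.09 with DMSO and 1.01 with tunicamycin. This difference did not pass the test (log2 -0.09 ± 0.06, SE; two-sided exact permutation p = 0.133, adjusted 0.133), and its sign changed in lane 3, where it was 0.06 against -0.07 and -0.22 in lanes 1 and 2. Leaving out 1 library at a time gave an unadjusted exact permutation p of 0.0238, without DMSO replicate 4, to 0.310. Only that omission brought it under 0.05.

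Transcripts of the effectors that start the destruction of the mRNA rose, and their DMSO libraries had the smallest spread of the 9 factors. Smg5, the adaptor of the deadenylation route (ENSMUSG00000001415, chromosome 3, 88336260 to 88362338, plus strand), had 93.8, 94.1, 97.5 and 93.7 CPM with DMSO and 127, 132, 129, 130, 130 and 125 CPM with tunicamycin. The libraries of each group lay within a narrow band, with a spread of 1.93% of the mean under DMSO, the smallest of the 9 factors. It rose 1.35-fold (log2 0.43 ± 0.03, SE; edgeR adjusted p = 6.11e-11).

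Smg6, the endonuclease (ENSMUSG00000038290, chromosome 11, 74925823 to 75164448, plus strand), had 46.0, 48.0, 48.9 and 48.6 CPM with DMSO and 70.1, 67.2, 70.9, 66.7, 67.1 and 67.1 CPM with tunicamycin. The groups were far apart relative to their spread. It rose 1.42-fold (log2 0.50 ± 0.04, SE; edgeR adjusted p = 5.28e-11), the smallest adjusted p of the 9 factors. The ratio of Smg6 to Smg5 counts was 0.490 to 0.519 with DMSO and 0.509 to 0.553 with tunicamycin, and these ranges overlapped. The difference of 0.07 ± 0.03 on the log2 scale (SE) did not pass the test (two-sided exact permutation p = 0.0667, adjusted 0.1), so a shift between the endonuclease and the adaptor of the other route was not detected. With 1 library left out at a time, the unadjusted exact permutation p was 0.0476, without DMSO replicate 4, to 0.179. No other omission brought it under 0.05.

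**Figure D2:**
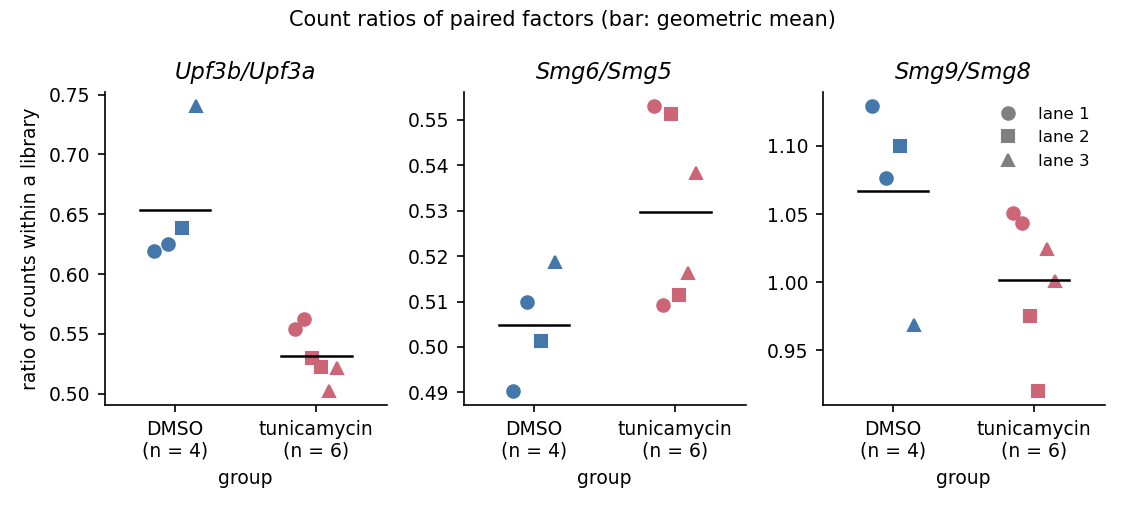
Count ratio of 3 pairs of factors within each library (vertical axis, no unit; each panel has its own range and does not start at 0), for DMSO (n = 4) and tunicamycin (n = 6). The marker shape gives the sequencing lane and bars are geometric means. Only the Upf3b to Upf3a ratio has groups that do not overlap, from 0.619 to 0.740 with DMSO and from 0.502 to 0.563 with tunicamycin.

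The fitted values of the 8 factors that rose were above 0 in each sequencing lane. Within lanes 1, 2 and 3 the log2 fold change was 0.61, 0.49 and 0.37 for Smg1, 0.64, 0.39 and 0.33 for Upf2, and 0.34, 0.26 and 0.56 for Smg9. It was 0.46, 0.39 and 0.42 for Smg5, 0.55, 0.47 and 0.45 for Smg6, and 0.41, 0.48 and 0.50 for Smg8. Upf1 gave 0.15, 0.14 and 0.21, and Upf3a gave 0.30, 0.15 and 0.25. Lanes 2 and 3 held 1 DMSO library each, whose spread is taken from the other libraries, so these values are given for their size and direction. The number of factors called higher was 8 with lane as a term and 8 with any 1 library left out, and 7 under upper-quartile scaling.

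**Figure D3:**
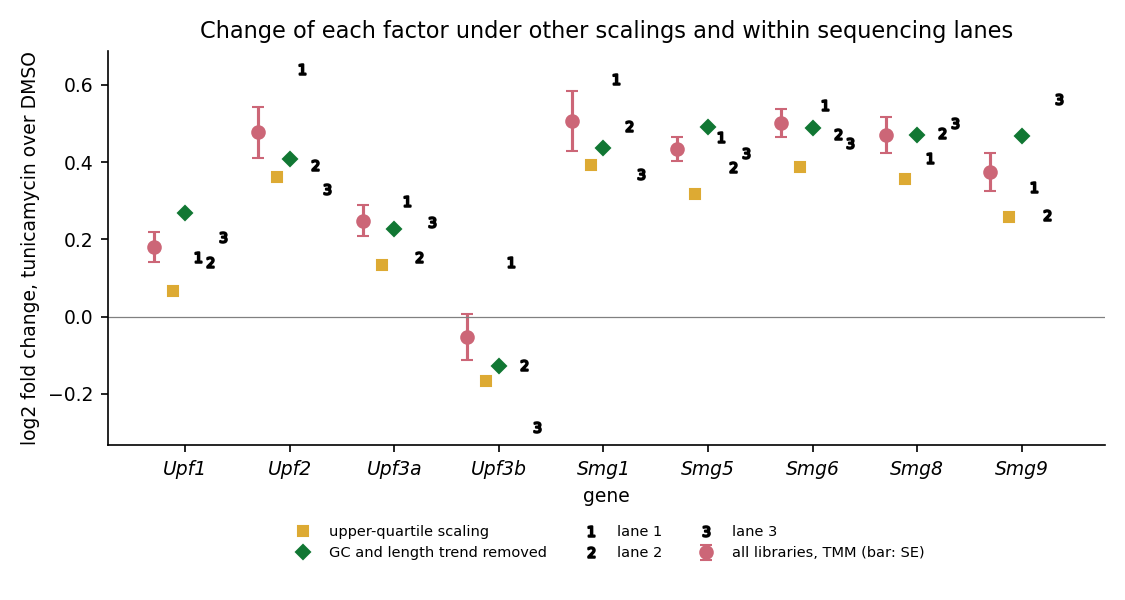
Log2 fold change of each factor, tunicamycin over DMSO (vertical axis), for all 10 libraries with TMM scaling (circle; bar: SE), with upper-quartile scaling, with a GC and length trend taken out, and within lanes 1, 2 and 3. Upf3b is the factor whose values lie on both sides of 0, from -0.29 to 0.14.

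Levels of different factors were compared per kilobase of annotated exons. Under DMSO Upf1 stood highest, at 16.2 ± 0.851 CPM per kb (SD, n = 4), followed by Smg5 at 13.6 ± 0.263, and neither overlapped its neighbour in the order. Smg1 (9.81 ± 1.22) and Smg8 (8.47 ± 0.341) overlapped, as did Smg8 and Smg9 (7.88 ± 0.758). The lowest 4, Upf3a (6.38), Upf3b (6.13), Smg6 (5.66) and Upf2 (5.40), each overlapped the next. With tunicamycin Smg5 (18.5 ± 0.379 CPM per kb, SD, n = 6) and Upf1 (18.4 ± 0.735) overlapped at the top, and Upf3b (5.94 ± 0.297) was the lowest, below all libraries of Upf2 (7.55 ± 0.616). Lengths are unions over all annotated transcripts, so a gene with long minor transcripts has a lower value on this scale.

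Counts of the factors rest on 496 to 9696 reads per library. GENCODE M21 annotates a transcript of the nonsense-mediated decay class for 3 of the 9, namely Smg1, Smg5 and Smg6, with 1 such transcript each. Gene counts add these to the coding transcripts, so a change in the share of either form cannot be told apart from a change in level. At most 2.87% of the exonic bases of a factor overlap another gene, and at most 1.74% of its 50-base words occur in transcripts of other genes.

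Genes that work beside the factors were taken from 10 lists with 121 members, of which 120 were tested. Their median log2 fold change was 0.22, with 76 genes higher and 10 lower, where 31.8% and 32.5% of all genes tested were higher and lower and their median was -0.02. For the shorter lists below, counts such as 3 of 7 or 5 of 11 higher lie near that background and are not results about the list. Under upper-quartile scaling 58 were called higher and 24 lower. A list of 7 other factors of the pathway had a median of 0.11, and 3 of them rose. They were Nbas (0.55), an ER-associated factor of local NMD, Pnrc2 (0.15), a decapping adaptor, and Stau1 (0.11), a double-stranded RNA binding protein.

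The 11 exon junction complex genes had a median log2 fold change of 0.06, and 5 of them rose and 1 fell. Of its core, Casc3 rose (0.36) and Magoh rose slightly (0.11), while Eif4a3 (0.03), Rbm8a (0.01) and Magohb (0.05) did not pass the test. Sap18, a peripheral subunit, fell (-0.15). Exons of Magohb and Casc3 overlap another gene in 30.2% and 11.5% of their bases, and 16.5% of the 50-base words of Eif4a3 and 15.3% of those of Sap18 occur in transcripts of other genes, so these 4 values are uncertain.

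Translation termination and cap and tail binding were covered by 10 genes with a median of 0.12, of which 5 rose and 2 fell. The release factor gene Etf1 rose from 156 to 228 CPM (log2 0.53 ± 0.04, SE). Its partner Gspt1 was at 0.01 and did not pass the test, and the related Gspt2 (-0.36) and the scaffold Eif4g1 (-0.14) fell. Of 7 chaperones that assemble kinases of the SMG1 type, Tti2 (0.56), Ruvbl2 (0.41) and Telo2 (0.27) rose and Pih1d1 (-0.12) fell. Exons of Tti2 and Ruvbl2 overlap another gene in 14.6% and 15.4% of their bases.

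Transcripts of the kinases related to SMG1 did not rise with that of Smg1. Of 5, 4 fell, namely Mtor (-0.23), Atm (-0.22), Prkdc (-0.33) and Trrap (-0.11), the pseudokinase of the family, and Atr (0.09) did not pass the test. The difference between Smg1 and these kinases was not tested.

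General mRNA decay genes mostly rose. The 12 decapping and 5′ to 3′ decay genes had a median of 0.23, and 8 were called, each of them higher. The decapping enhancer Edc3 was highest (0.67, with 22.1% of its exonic bases in another gene), and the exonuclease Xrn1, which finishes decay from the 5′ end, stood at -0.0016 and did not pass the test. The 18 deadenylation genes had a median of 0.12, with 12 higher and only Tob2 (-0.12) lower. Btg1 (1.08) and Btg2 (1.14), antiproliferative proteins that bind the deadenylase, had the largest values. The 14 tested exosome and SKI genes had a median of 0.16, and 10 were called, each of them higher, led by the nuclease Dis3 (0.79). Exons of Exosc2, Exosc4 and Exosc9, all called, overlap another gene in 12.4%, 19.8% and 10.8% of their bases. Those of Wdr61, which was not called, do so in 33.9%.

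Transcripts known as substrates of the pathway were higher. The 20 genes of this list had a median log2 fold change of 1.49, and 18 were called, each of them higher. Ddit3 had the smallest p (log2 2.93, with 10.9% of its exonic bases in a second annotated entry of the same name). Tnfrsf10b (0.06) and Robo3 (0.58, at 0.377 CPM with DMSO) did not pass the test. Several of these, such as Atf4, Atf3, Ddit3, Chac1 and Ern1, are genes of the ER stress response itself, so their count is not independent of the treatment. The snoRNA host transcripts among them, which are classical substrates with no long reading frame, gave log2 fold changes of 0.92 for Gas5, 2.33 for Snhg1, 2.22 for Snhg12 and 1.86 for Snhg15. Exons of Gas5, Snhg1 and Snhg12 overlap small RNA genes in 17.8% to 20.9% of their bases. Those of Gadd45a, also in the list of substrates, overlap another gene in 19.1%. Whether decay of any gene of this list changed was not tested, and counts per gene do not separate decay from synthesis. The 16 splicing factors whose genes carry poison exons had a median of 0.39, with 12 higher and only Ptbp2 (-0.18) lower. Srsf3 had the smallest p, with a log2 fold change of 0.74 (10.04% of its 50-base words occur in transcripts of other genes). Exons of Srsf4 and Ptbp1, both called higher, overlap another gene in 43.0% and 20.7% of their bases. Those of Srsf2, which was not called, do so in 25.3%. Poison exon inclusion cannot be read from counts per gene.

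**Figure D4:**
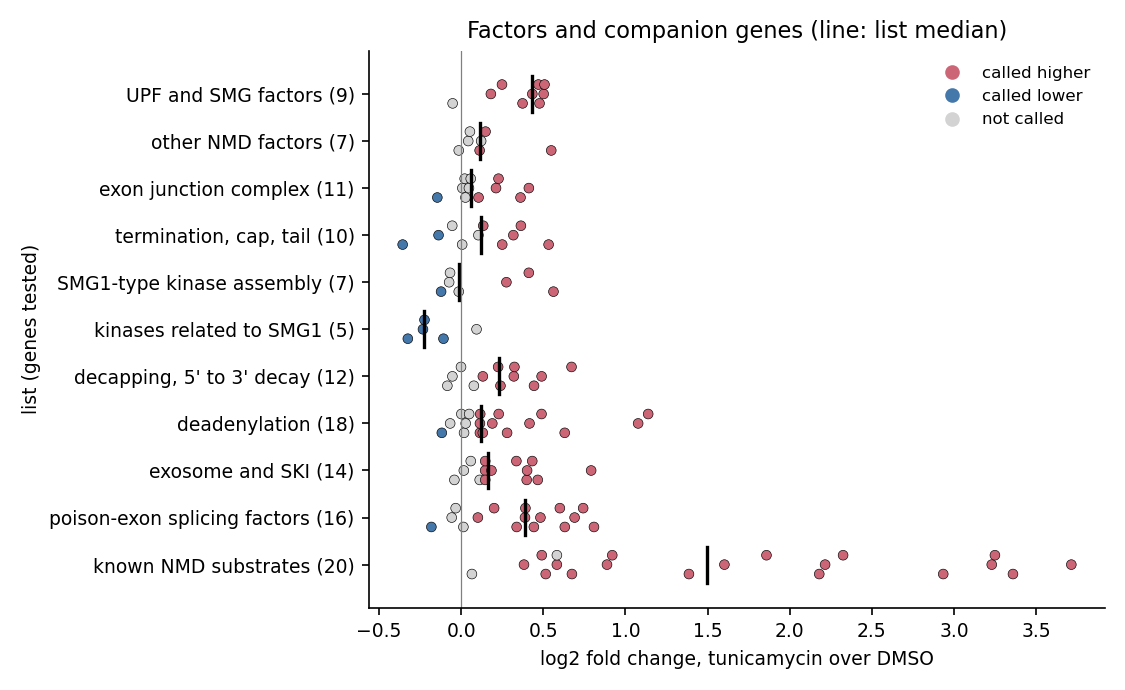
Log2 fold change of each tested gene, tunicamycin over DMSO (horizontal axis), for the 9 factors and the 10 lists of companion genes (vertical axis, with the number tested). Colours mark genes called higher, called lower or not called, and vertical lines are list medians. The median is 0.43 for the factors and 1.49 for the known substrates, and -0.22 for the kinases related to SMG1.

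The genes whose profile over the 10 libraries lay nearest to those of Upf1 and Smg1 were found by the root mean square distance of log2 CPM values, each centred on its mean. Nearest to Upf1 were Med9, a Mediator subunit, Mrps26, a mitochondrial ribosomal protein, and Nosip, at distances of 0.03. Nearest to Smg1 were Ccdc66, the kinase gene Braf and Klhl11, at distances of 0.04. Of the other 8 factors, Upf2 was nearest to Smg1 (distance 0.06, rank 25 of all genes) and Upf3a to Upf1 (0.07, rank 504). The measure follows the difference between groups as well as the spread within them, and is a description.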

How the data were processed

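Libraries came from the TruSeq RNA v2 kit, an unstranded kit, and were sequenced as single reads of 50 bp, per the labels' protocols. Per the submitters' processing notes, the tools were STAR 2.5.2b, Subread 1.5.1 with featureCounts, FastQC 0.11.5 and DESeq2, on build mm10, with no role stated for any of them. Annotation release, strand setting and the treatment of multiply matching reads were not stated. The authors deposited whole-number counts per gene and library. The authors also deposited tables of called genes with a log2 fold change, an adjusted p-value and a normalized signal per library. The signal columns were not used.

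GENCODE M21 (GRCm38, another name of mm10) matched 48349 of the 48709 identifiers. The 360 others held 0.0462% of counts and stayed in library totals. Groups were compared with edgeR 4.0.16 (R 4.3.3; quasi-likelihood, robust, two-sided) on 10 libraries with TMM scaling and filterByExpr, adjusted by Benjamini-Hochberg over 15660 genes. An SE is the log2 fold change over the square root of F. CPM uses library totals. Groups follow the agent in the sample titles. Lanes were read from the names of the deposited files. Levels per kb use the union of annotated exons. The 3 count ratios were tested by exact permutation. Promoters are from RefSeq (GRCm38.p6).

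The members and all lists were chosen with earlier results of these data known, so no list was tested as such. Results of some items are left out here. Named genes are the 9 factors, of each list the called gene with the smallest p and any in the rarer direction, and the 3 genes nearest to Upf1 and to Smg1. Other genes named were chosen after their values were seen, as were the 5 motifs and the measures on gene length and GC content. Libraries of a group differed beyond counting noise (chi-square per degree of freedom 2.18 to 10.5). The code was tested on simulated counts. DESeq2 1.42.0, RLE and upper-quartile scaling, other filters, a lane term, a replicate block and omission of each library were alternatives.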

Additional observations from a re-analysis of the deposited data

Results flagged for a closer look

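Each group of 4 or 6 libraries was examined for a library far from the rest, for the CPM of the 9 factors and for the 3 ratios, 24 groups in all. Chance marks about 1 in 20 such groups. The level of Smg5 in DMSO replicate 3 was 97.5 CPM, where the other DMSO libraries had 93.7 to 94.1 CPM. The ratio of Upf3b to Upf3a in DMSO replicate 4 was 0.740, where the other DMSO libraries had 0.619 to 0.638.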

How the results depend on the processing

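Of 198 recomputed values of the 9 factors, 189 kept their direction and their side of the threshold. Of the others, 5 values of Smg1, Upf1 and Upf3a lost their call, 2 of Upf3b gained one and 2 reversed. Values within lanes 2 and 3 rest on 1 DMSO library, assumed to vary like the others, so their side of the threshold is uncertain. The reversed values were both of Upf3b, 0.019 without DMSO replicate 4 and 0.14 in lane 1, and leaving out 1 library gave -0.10 to 0.019 for that gene. Upper-quartile scaling gave 3632 genes called higher and 6934 lower, 7 and 1 of the 9 factors (Upf3b was the 1 lower) and 58 and 24 companion genes. Leaving out 1 library gave 4796 to 4963 genes higher and 4726 to 4997 lower, 72 to 77 companion genes higher and 7 to 11 lower. It gave differences of -0.32 to -0.24 for the Upf3b to Upf3a ratio, 0.055 to 0.082 for Smg6 to Smg5 and -0.14 to -0.064 for Smg9 to Smg8. Lane 1 gave -0.16 and lane 3 gave -0.53 for Upf3b to Upf3a. Lane 2 gave -0.22 and lane 3 gave 0.064 for Smg9 to Smg8. The cause was not tested. With the replicate block over replicates 1 to 4, 8 factors were again called higher, and the Upf3b to Upf3a difference was -0.27 (exact p = 0.125, the smallest that 4 pairs allow). Same-numbered libraries did not deviate together (r = -0.22 to 0.01), so the numbers were not used as pairs. DESeq2 called 8 factors higher and none lower.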
